A study of Caenorhabditis elegans with 12 samples.

Results

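Transcript levels were compared between whole gravid adult Caenorhabditis elegans grown at 25 °C and adults of the same wild-type strain, N2, grown at 20 °C. The comparison was defined by the libraries' labels alone, as 3 libraries of worms at 25 °C (the F0 group) against 3 libraries of control worms at 20 °C, which makes 6 of the 12 libraries of the series. All gene rows were kept, and 14466 of 45836 genes passed the filter on low counts and were tested. The 25 °C worms had spent 5 generations at that temperature and were collected 54 to 56 h after their eggs were plated. The control worms came from a stock held at 20 °C for more than 20 generations and were handled in parallel. The labels give no collection hours of their own for the controls, against 72 to 76 h for the other worms grown at 20 °C, and do not say with which collection the controls were taken. Growth temperature, hours since plating and collection cannot be told apart in any result below. Each group had 3 biological replicates of 3 plates with 1500 eggs per plate, per the labels' protocols. The labels name no transgene, mutation or drug for either group. The other 6 libraries were of worms returned to 20 °C for 3 generations (F3) and of set-25 mutants at 20 °C. They entered the filter on low counts, the scaling and the fit's shared estimate of the spread. F3 worms were also compared with the controls, as given further below.

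C. elegans develops faster and lives a shorter life at 25 °C, a temperature near the upper end of its fertile range. Heat-responsive transcription in this animal runs largely through the heat shock factor HSF-1, which switches on chaperone genes, and membrane fluidity is adjusted through the fatty acid desaturases. An adult hermaphrodite makes sperm during the last larval stage and then only oocytes, so that a whole adult holds stored sperm, a large ovary, fertilised eggs and somatic tissue that has finished its last moult.

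Libraries held 33387189, 32520845 and 34192047 counts at 25 °C, against 28217840, 35483865 and 32494907 counts at 20 °C. The first principal component separated the groups and held 73.8% of the variance. Replicates within each group differed by more than counting noise. Counts from ribosomal RNA genes made up 3.11% to 3.27% of the 25 °C libraries and 3.35% to 3.98% of the 20 °C libraries. Control replicate 3 stood apart from its group. It lay at least 1.5-fold below both other control libraries for 267 of 11880 genes with a mean of at least 1 CPM (counts per 1000000 gene counts) in either group, and 210 of these were among the genes called higher at 25 °C. Control replicate 1 lay at least 1.5-fold above both others for 151 genes. In the 25 °C group, the counts of such genes above the other libraries were 59, 71 and 25 for replicates 1, 2 and 3. Sperm and cuticle genes were among those that separated the controls, so results on these groups are given with and without control replicate 3. Markers of every expected tissue were detected, among them ges-1 of the intestine, myo-3 of body muscle, snb-1 of neurons, rme-2 of oocytes and glh-1 of the germ line. Of 5 male markers, 2 passed the filter, and neither was called. In whole worms, fewer cells of a type and less RNA per cell cannot be told apart.

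At 25 °C, 2408 genes were called higher and 1743 lower by edgeR's quasi-likelihood test at a Benjamini-Hochberg adjusted p under 0.05, two-sided. These were 16.6% and 12% of the 14466 genes tested, and they are the background for every count below. Unless another value is named, a single number in parentheses after a gene is its log2 fold change, 25 °C over 20 °C, each adjusted p is from this test, a second adjusted p or range with named libraries is from the fit without each of them, and ± is the SD over 3 libraries. The directions differed in size. Among genes called higher the median log2 fold change was 0.70, and 898 genes (6.21% of those tested) rose at least 2-fold. Among genes called lower it was -0.26, and 145 genes (1.0%) fell at least 2-fold. Of the genes called lower, 50.8% differed by less than 1.2-fold. The 2-fold higher genes were mostly lowly expressed, with a median of 0.809 CPM over both groups, against 9.95 CPM for all tested genes and 41.4 CPM for the genes called lower. Those without a gene-class name made up 66.5% of the genes that rose at least 2-fold and 55.4% of all tested genes. The median over all tested genes was 0.008 on the log2 scale. In 26.1% of tested genes every 25 °C library lay above every control, and in 24.3% every one lay below, 50.4% in all.

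**Figure D1:**
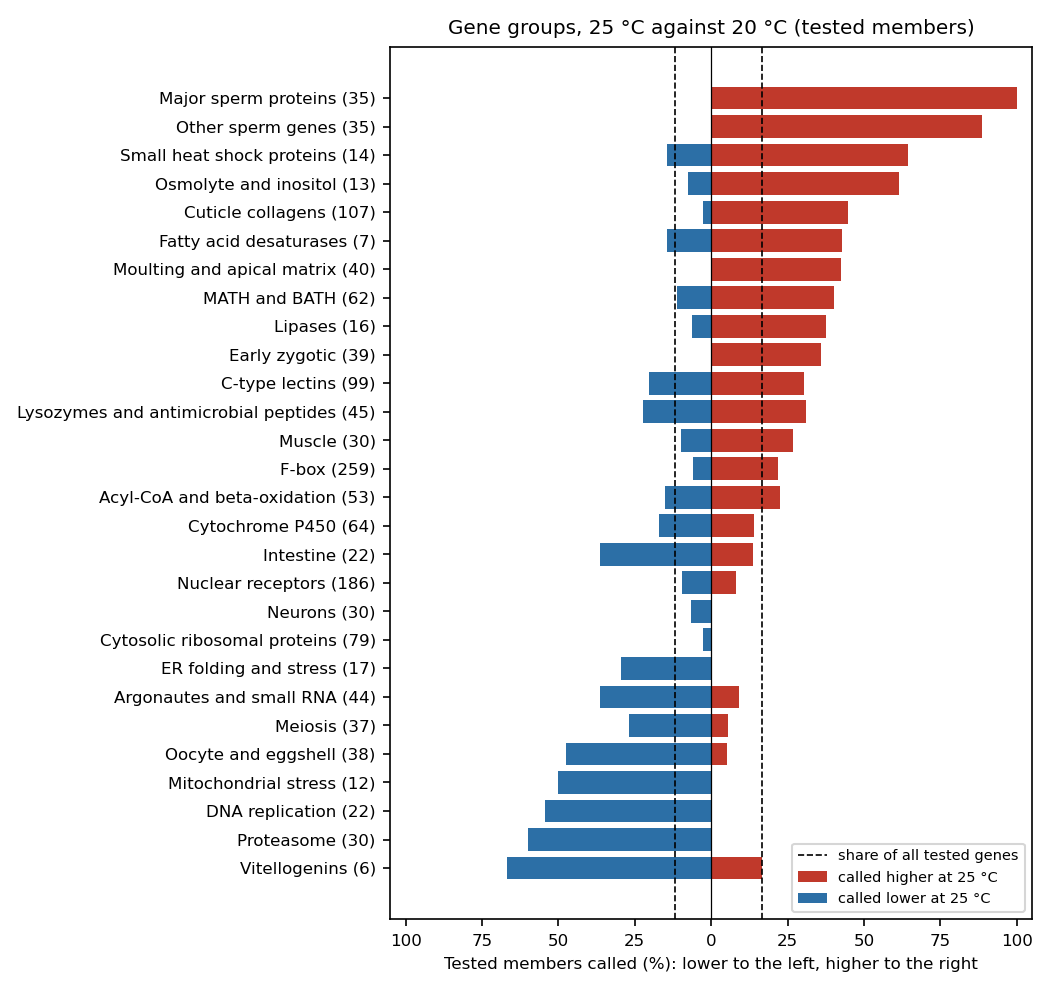
Share of tested members called higher (bars to the right) and lower (bars to the left) at 25 °C in 28 gene groups, in percent of tested members, whose number stands in parentheses; dashed lines mark 16.6% higher and 12% lower over all 14466 tested genes. All 35 tested major sperm protein genes lie on the right, and 18 of 30 proteasome genes lie on the left with none on the right.

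Small heat shock proteins, holdase chaperones that bind unfolding proteins, showed the largest single increase among genes that met the naming rule. Of 14 members, 9 rose and 2 fell, with a median log2 fold change of 0.42. The classical heat-inducible gene hsp-16.41 had 1.76, 2.27 and 2.17 CPM in the 25 °C libraries, against 0.0711, 0.028 and 0.0311 CPM in the 20 °C libraries. The 20 °C values rest on 2, 1 and 1 counts, against 60, 76 and 76 counts at 25 °C, and the groups did not overlap (log2 fold change 5.49, standard error 0.39, adjusted p 1.69e-08). Its neighbour hsp-16.2 had 1.38, 1.55 and 1.71 CPM at 25 °C, against 0.178, 0.28 and 0.218 CPM at 20 °C (log2 fold change 2.74, standard error 0.37, adjusted p 2.59e-05). The copies hsp-16.1 and hsp-16.11 had near-equal counts, as did hsp-16.48 and hsp-16.49, so each pair may share reads and is given once. Reads of hsp-16.1 came to 7.82, 8.44 and 8.04 CPM at 25 °C, against 2.03, 2.05 and 2.24 CPM at 20 °C, and those of hsp-16.48 to 10.5, 10.7 and 10.9 CPM at 25 °C, against 2.06, 2.13 and 2.8 CPM at 20 °C. Both rose about as much, with log2 fold changes of 1.94 and 2.19 and no overlap between groups.

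Other small heat shock genes moved little or in the opposite direction. The gene hsp-43 averaged 54.7 ± 2.44 CPM at 25 °C and 38.1 ± 1.57 CPM at 20 °C (log2 fold change 0.52, standard error 0.05, adjusted p 1.16e-06), and hsp-25 (0.13, adjusted p 0.0157, 0.0544 to 0.129 without 25 °C replicate 1, 2 or 3 or control replicate 1 or 2) and hsp-12.2 (0.28, adjusted p 0.0219, 0.074 to 0.157 without 25 °C replicate 1 or control replicate 1 or 3) rose by smaller amounts. The germline and embryonic small heat shock gene sip-1 fell slightly, with 985, 944 and 1020 CPM at 25 °C, against 1086, 1053 and 1134 CPM at 20 °C (log2 fold change -0.15, standard error 0.05, adjusted p 0.047, 0.0799 to 0.147 without 25 °C replicate 1 or 2 or control replicate 1 or 3). A further member, hsp-17, had 13.9, 12.1 and 14.6 CPM at 25 °C, against 19, 18.7 and 19.4 CPM at 20 °C and also fell (log2 fold change -0.49, standard error 0.11, adjusted p 0.00253). For hsp-12.6, a target of the insulin pathway, the 25 °C libraries had 0.412, 0.268 and 0.228 CPM and the 20 °C libraries 0.569, 0.477 and 0.809 CPM, which did not overlap but missed the threshold (adjusted p 0.0531). The summed level of the 14 genes was 1187, 1144 and 1226 CPM at 25 °C, against 1233, 1202 and 1288 CPM at 20 °C. The sums did not overlap and were slightly lower at 25 °C. With single libraries left out, 1 (without 25 °C replicate 2 or control replicate 1 or 3) to 3 (without control replicate 2) members were called lower.

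Inducible and constitutive cytosolic chaperones differed in the same way. The heat-inducible HSP70 gene hsp-70 had 2.21, 2.39 and 2.28 CPM in the 25 °C libraries, against 0.569, 0.785 and 0.623 CPM in the 20 °C libraries (log2 fold change 1.78, standard error 0.24, adjusted p 2.51e-05). Counts of F44E5.4 and F44E5.5, a pair of near-identical inducible HSP70 genes, also rose without overlap, with F44E5.4 at 10.5, 10.5 and 11.1 CPM at 25 °C, against 5.37, 4.43 and 4.39 CPM at 20 °C (log2 fold changes 1.19 and 1.18). By contrast hsp-1, the constitutive HSP70, averaged 3099 ± 84.1 CPM at 25 °C and 3459 ± 35.9 CPM at 20 °C and daf-21, the HSP90 gene, 3804 ± 70.3 CPM at 25 °C and 4000 ± 69.2 CPM at 20 °C; neither was called (adjusted p 0.0759 and adjusted p 0.397). The transcription factor gene hsf-1 itself fell by a small margin, with 78.8, 80.1 and 80.8 CPM at 25 °C, against 88.5, 85.5 and 86.2 CPM at 20 °C (log2 fold change -0.12, standard error 0.04, adjusted p 0.0278, 0.0515 to 0.078 without 25 °C replicate 1 or 2 or control replicate 1). The HSP90 co-chaperone genes sti-1 (log2 fold change -0.22) and unc-45 (-0.16), which also folds myosin, fell too, whereas the J-domain gene dnj-19 rose (0.14, adjusted p 0.00852, 0.0548 to 0.0786 without 25 °C replicate 1 or control replicate 2 or 3). In all, 4 of 19 members rose and 4 fell. In fits without 1 library, 2 (without 25 °C replicate 2 or control replicate 1) to 3 (without 25 °C replicate 1 or 3 or control replicate 2 or 3) fell.

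**Figure D2:**
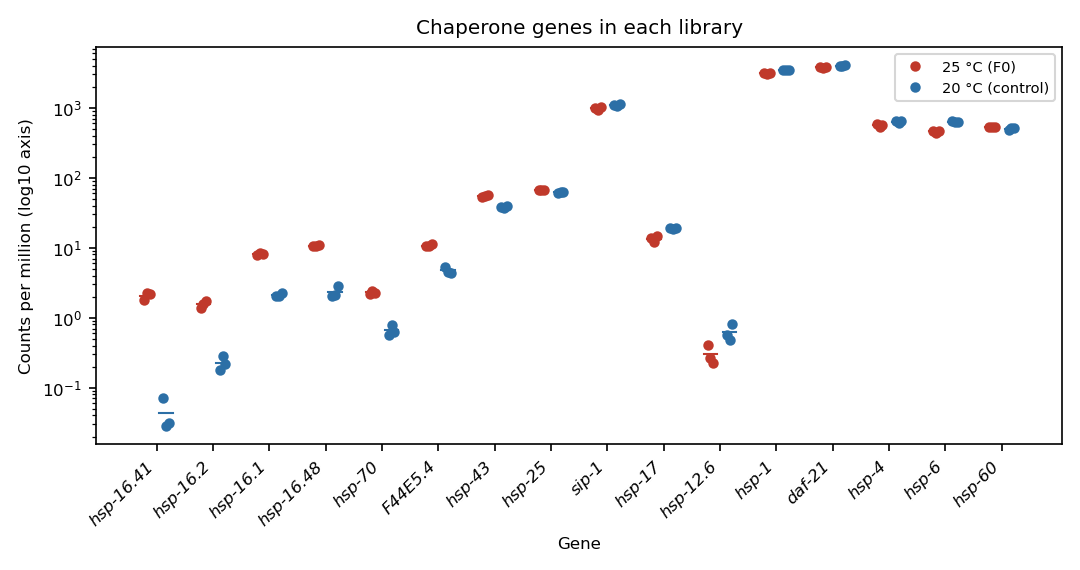
Level of 16 chaperone genes in each library, in CPM on a log10 axis; each point is 1 library (25 °C left, 20 °C right within a gene) and short lines are means of 3. The inducible genes hsp-16.41, hsp-16.2, hsp-16.1, hsp-16.48, hsp-70 and F44E5.4 lie higher in all 25 °C libraries, while hsp-1 and daf-21 have slightly lower means at 25 °C and were not called.

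Many genes of the proteasome, the main protease of the cytosol and nucleus, fell by small amounts. Every one of the 30 proteasome genes had a negative log2 fold change, and 18 were called lower, against 0 called higher (median -0.14). No member was higher at an unadjusted p under 0.05 in edgeR's test or called higher by DESeq2. Fitting only the 6 libraries compared raised the count of lower genes to 29. Decreases among the called genes ran from -0.12 to -0.26 on the log2 scale. The base subunit gene rpn-1 averaged 295 ± 10.8 CPM at 25 °C and 354 ± 6.59 CPM at 20 °C (log2 fold change -0.26, standard error 0.04, adjusted p 6.93e-05), and pbs-7 of the catalytic core averaged 179 ± 3.28 CPM at 25 °C and 204 ± 1.28 CPM at 20 °C (log2 fold change -0.19, standard error 0.04, adjusted p 0.00109). Summed over the 30 genes, the level was 6235, 6157 and 6220 CPM at 25 °C, against 6900, 6764 and 6967 CPM at 20 °C, with no overlap. Leaving out 1 library at a time left 10 (without 25 °C replicate 3) to 15 (without 25 °C replicate 1 or control replicate 2) called lower. The cytosolic chaperonin and prefoldin genes, which fold actin and tubulin, all had negative values too, and 5 of 14 were called lower, cct-2 and pfd-6 among them (log2 fold changes -0.21 and -0.20); with 1 library left out the count was 2 (without 25 °C replicate 2 or 3 or control replicate 1 or 3) to 4 (without 25 °C replicate 1 or control replicate 2).

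No stress chaperone of the organelles was called higher. In the endoplasmic reticulum group 5 of 17 genes fell and 0 rose (1 at an unadjusted p under 0.05, 0 by DESeq2). The BiP gene hsp-4, a standard reporter of the unfolded protein response, averaged 567 ± 26.3 CPM at 25 °C and 632 ± 24.9 CPM at 20 °C (log2 fold change -0.16, standard error 0.05, adjusted p 0.0288, 0.0632 to 0.117 without 25 °C replicate 2 or 3 or control replicate 1 or 3), the sensor ire-1 and calreticulin crt-1 fell by similar amounts (-0.19 and -0.19), and hsp-3, the other BiP gene, was not called (-0.02, adjusted p 0.843). Without single libraries the count of lower genes in this group was 3 (without 25 °C replicate 2 or 3 or control replicate 1 or 3) to 5 (without control replicate 2). In the mitochondrial stress group 6 of 12 genes fell and 0 rose (0 at an unadjusted p under 0.05, 0 by DESeq2). The mitochondrial HSP70 gene hsp-6 had 471, 442 and 464 CPM in the 25 °C libraries, against 638, 626 and 617 CPM in the 20 °C libraries (log2 fold change -0.45, standard error 0.05, adjusted p 1.16e-06), with no overlap. Its regulator atfs-1, the transcription factor of the mitochondrial unfolded protein response, fell by 0.26 on the log2 scale (adjusted p 0.000165), and the peptide exporter haf-1 by 0.64 (adjusted p 0.000347). The mitochondrial chaperonin gene hsp-60 was not called, at 528 ± 3.71 CPM at 25 °C and 502 ± 15.3 CPM at 20 °C (adjusted p 0.228).

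Fatty acid desaturases, the enzymes that put double bonds into acyl chains, moved in opposite directions, with 3 of 7 higher and 1 lower. The largest decrease of any gene that met the naming rule was that of fat-7, a stearoyl-CoA desaturase known to be induced in the cold, which had 14.3, 9.81 and 10.8 CPM in the 25 °C libraries, against 128, 147 and 171 CPM in the 20 °C libraries (log2 fold change -3.67, standard error 0.19, adjusted p 1.77e-06). The highest 25 °C library lay far below the lowest 20 °C library. The other stearoyl-CoA desaturase, fat-6, had 258, 211 and 255 CPM at 25 °C, against 192, 205 and 203 CPM at 20 °C; these did not overlap and were higher at 25 °C, but the gene missed the threshold (log2 fold change 0.27, standard error 0.10, adjusted p 0.0631). The palmitoyl-CoA desaturase fat-5 overlapped between groups, at 43.1 ± 6.11 CPM at 25 °C and 45.6 ± 3.45 CPM at 20 °C (adjusted p 0.631).

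Of the 4 downstream desaturases, which make polyunsaturated fatty acids, 3 rose. The Δ12 desaturase fat-2 had 677, 616 and 720 CPM in the 25 °C libraries, against 408, 399 and 415 CPM in the 20 °C libraries (log2 fold change 0.72, standard error 0.06, adjusted p 1.54e-07). The Δ6 desaturase fat-3 had 144, 141 and 142 CPM at 25 °C, against 103, 93.8 and 101 CPM at 20 °C (log2 fold change 0.52, standard error 0.04, adjusted p 1.45e-07), and the omega-3 desaturase fat-1 had 454, 449 and 486 CPM at 25 °C, against 365, 358 and 360 CPM at 20 °C (log2 fold change 0.36, standard error 0.04, adjusted p 1.06e-05). In each of these genes all 25 °C libraries lay above all 20 °C libraries. The Δ5 desaturase fat-4 also did not overlap, at 229 ± 7.39 CPM at 25 °C and 218 ± 3.67 CPM at 20 °C, without reaching the threshold (adjusted p 0.146). Among 12 regulators, nhr-49 and nhr-80, nuclear receptors known to promote fat-7 expression, were not called (log2 fold changes -0.03 and 0.00), nor were paqr-2, a receptor-like membrane protein required for cold tolerance (-0.04), and acdh-11, which restrains fat-7 at high temperature (0.06). The S-adenosylmethionine synthase gene sams-1 rose (0.24, adjusted p 0.00153) and nhr-13 fell (-0.28, adjusted p 0.0203, 0.0634 to 0.0709 without 25 °C replicate 2 or control replicate 2). Among the 11 elongase and fatty acid synthesis genes tested, fatty acid synthase fasn-1 had 610.4, 595 and 623 CPM at 25 °C, against 479.5, 486 and 471 CPM at 20 °C and rose (log2 fold change 0.35, standard error 0.06, adjusted p 0.000289), while the elongase gene elo-2 fell (-0.24, adjusted p 0.00139).

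**Figure D3:**
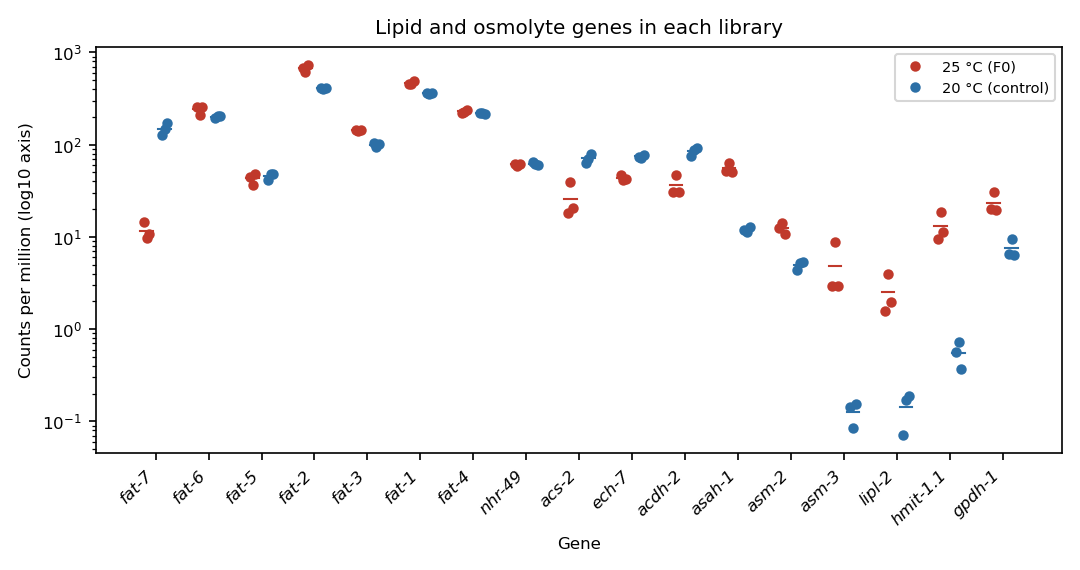
Level of 17 lipid and osmolyte genes in each library, in CPM on a log10 axis; each point is 1 library (25 °C left, 20 °C right within a gene) and short lines are means of 3. The desaturase fat-7 lies lower at 25 °C by more than any other gene shown, fat-1, fat-2 and fat-3 lie higher, and replicate 2 at 25 °C is the highest of its group for asm-3, lipl-2, hmit-1.1, gpdh-1 and acs-2.

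Genes of fatty acid breakdown were mixed. Of 53 tested acyl-CoA synthetase, dehydrogenase and β-oxidation genes, 12 rose (22.6%) and 8 fell (15.1%), against 16.6% and 12% of all tested genes (median 0.06). Leaving out 1 library at a time gave 5 (without 25 °C replicate 1 or control replicate 3) to 8 (without control replicate 1) decreases. The acyl-CoA synthetase acs-2, a fasting-induced target of NHR-49, had 18, 39.2 and 20.4 CPM in the 25 °C libraries, against 63.4, 70.5 and 78.7 CPM in the 20 °C libraries (log2 fold change -1.46, standard error 0.26, adjusted p 0.00362). Replicate 2 at 25 °C was the highest of its group, and the groups still did not overlap. The same arrangement held for the acyl-CoA dehydrogenase acdh-2, with 30.9, 46.9 and 30.7 CPM at 25 °C, against 74.8, 86.8 and 91.5 CPM at 20 °C (log2 fold change -1.22, standard error 0.19, adjusted p 0.00139), and for the glyoxylate cycle gene icl-1, with 170.2, 303 and 195 CPM at 25 °C, against 354, 374 and 409 CPM at 20 °C (log2 fold change -0.77, standard error 0.19, adjusted p 0.0175, 0.0552 to 0.0603 without 25 °C replicate 3 or control replicate 3). The enoyl-CoA hydratase gene ech-7 fell as well, averaging 43.7 ± 2.86 CPM at 25 °C and 74.4 ± 2.67 CPM at 20 °C (adjusted p 7.99e-06). In the opposite direction, acs-18 had 2.35, 1.64 and 1.65 CPM at 25 °C, against 0.213, 0.14 and 0.0623 CPM at 20 °C (log2 fold change 3.75, standard error 0.44, adjusted p 6.37e-06), and further increases were those of acdh-8, another acyl-CoA dehydrogenase gene (2.47), and acs-3, another synthetase gene (0.98).

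Lipases and sphingolipid-degrading enzymes contained some of the largest increases. The lysosomal lipase genes lipl-1 and lipl-2, known to be induced by fasting, both rose. Levels of lipl-1 were 1.38, 3.28 and 1.43 CPM at 25 °C, against 0.284, 0.28 and 0.124 CPM at 20 °C (log2 fold change 3.12, standard error 0.40, adjusted p 1.75e-05). Those of lipl-2 were 1.59, 3.94 and 1.97 CPM at 25 °C, against 0.0711, 0.168 and 0.187 CPM at 20 °C (log2 fold change 4.06, standard error 0.48, adjusted p 1.47e-05). Replicate 2 was the highest 25 °C library for both, with no overlap between groups. Another lysosomal lipase gene, lipl-5, had 179.6, 249 and 215 CPM at 25 °C, against 138, 136 and 148 CPM at 20 °C (log2 fold change 0.61, standard error 0.10, adjusted p 0.00206). In total 6 of 16 tested lipase genes rose and 1 fell, the decreases becoming 0 (without 25 °C replicate 2 or control replicate 3) to 2 (without 25 °C replicate 1 or control replicate 1) with single libraries left out, and 9 further lipase genes did not pass the filter. The acid ceramidase gene asah-1 had 52.2, 63.4 and 50.1 CPM in the 25 °C libraries, against 12, 11.2 and 12.8 CPM in the 20 °C libraries (log2 fold change 2.21, standard error 0.12, adjusted p 1.86e-08), and the groups did not overlap. Of the acid sphingomyelinases, asm-2 had 12.3, 14 and 10.7 CPM at 25 °C, against 4.41, 5.16 and 5.29 CPM at 20 °C (log2 fold change 1.31, standard error 0.12, adjusted p 4.19e-07). Its paralogue asm-3 had 2.91, 8.74 and 2.94 CPM at 25 °C, against 0.142, 0.0841 and 0.156 CPM at 20 °C; replicate 2 stood well above the other 25 °C libraries, and all 3 exceeded all controls (log2 fold change 5.23, standard error 0.58, adjusted p 4.45e-05). The ceramide synthesis gene sptl-1, a serine palmitoyltransferase subunit, fell slightly (-0.18, adjusted p 0.000577). Altogether 4 of 19 sphingolipid genes rose and 2 fell. Such decreases numbered 1 (without 25 °C replicate 1 or 2 or control replicate 2 or 3) to 2 (without 25 °C replicate 3 or control replicate 1) without single libraries.

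Yolk protein genes, which are transcribed in the adult intestine and supply the oocytes, were mostly lower. Transcripts of vit-2 came to 7701, 7133 and 9044 CPM at 25 °C, against 9410, 9488 and 10630 CPM at 20 °C (log2 fold change -0.31, standard error 0.09, adjusted p 0.0148, 0.0723 to 0.0765 without 25 °C replicate 2 or control replicate 3), and those of vit-6 to 16550, 15540 and 18050 CPM at 25 °C, against 19110, 19760 and 20890 CPM at 20 °C (log2 fold change -0.25, standard error 0.08, adjusted p 0.0193, 0.0549 to 0.0893 without 25 °C replicate 1 or 2 or control replicate 3). The genes vit-3 (-0.24, adjusted p 0.0155, 0.0503 to 0.0687 without 25 °C replicate 2 or control replicate 3) and vit-4 (-0.27) also fell, vit-5 did not overlap but was not called (adjusted p 0.0753), and vit-1 rose, at 3174 ± 281 CPM at 25 °C and 2605 ± 95.2 CPM at 20 °C (log2 fold change 0.29, standard error 0.07, adjusted p 0.00726, 0.0692 without 25 °C replicate 3). Reads may be shared among these close paralogues. The summed level of the 6 genes was 44900, 42280 and 49370 CPM at 25 °C, against 51650, 52150 and 55380 CPM at 20 °C, with no overlap. The 4 calls of a decrease became 1 (without 25 °C replicate 2 or control replicate 3) to 5 (without 25 °C replicate 3) when single libraries were left out. The yolk receptor gene rme-2 averaged 1361 ± 42.1 CPM at 25 °C and 1498 ± 23.7 CPM at 20 °C and was not called (adjusted p 0.0608).

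Most genes for osmolytes rose. Of 13 tested genes for glycerol, trehalose and inositol handling, 8 rose and 1 fell, and the increases became 5 (without control replicate 3) to 7 (without 25 °C replicate 1 or 3 or control replicate 2) with single libraries left out. The inositol transporter gene hmit-1.1, induced by hyperosmotic stress, had 9.59, 18.5 and 11.4 CPM in the 25 °C libraries, against 0.569, 0.729 and 0.374 CPM in the 20 °C libraries (log2 fold change 4.54, standard error 0.37, adjusted p 5.72e-06). Glycerol-3-phosphate dehydrogenase gpdh-1, the standard osmotic stress reporter, had 20.1, 30.9 and 19.3 CPM at 25 °C, against 6.51, 9.59 and 6.35 CPM at 20 °C (log2 fold change 1.64, standard error 0.24, adjusted p 0.000839). In both genes replicate 2 was the highest 25 °C library and the groups did not overlap. The trehalose synthase gene tps-1 (0.33, adjusted p 0.00108) and the trehalase gene tre-3 (0.40, adjusted p 0.000591) rose more modestly and tre-5 fell (-1.03, adjusted p 0.0244, 0.0743 to 0.0944 without 25 °C replicate 3 or control replicate 2 or 3).

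Genes of central metabolism moved in both directions. Among 29 genes of glycolysis, the citric acid cycle and the glyoxylate cycle, 4 rose (13.8%) and 6 fell (20.7%), against 16.6% and 12% of all tested genes. With single libraries left out, 2 (without 25 °C replicate 3) to 6 (without control replicate 2) fell. Succinyl-CoA ligase subunit suca-1 averaged 215 ± 2.48 CPM at 25 °C and 140.3 ± 2.66 CPM at 20 °C (log2 fold change 0.62, standard error 0.04, adjusted p 1.60e-08), while its counterpart sucg-1 fell slightly (-0.15, adjusted p 0.0119, 0.0633 without 25 °C replicate 3) and glucose-6-phosphate isomerase gpi-1 fell (-0.29, adjusted p 4.56e-05). Of 30 nuclear genes of the respiratory chain 3 rose, a count of 1 (without 25 °C replicate 1 or 2 or control replicate 1 or 3) to 2 (without 25 °C replicate 3 or control replicate 2) with single libraries left out, and 0 fell (1 at an unadjusted p under 0.05, 0 by DESeq2). One of those that rose was the complex I subunit gas-1 at 132 ± 3.62 CPM at 25 °C and 99.5 ± 3.84 CPM at 20 °C (log2 fold change 0.40, standard error 0.04, adjusted p 9.18e-07). In one-carbon metabolism 5 of 13 genes rose and 2 fell. In fits without 1 library, 3 (without 25 °C replicate 3 or control replicate 2) to 4 (without 25 °C replicate 1 or 2 or control replicate 1 or 3) rose and 0 (without 25 °C replicate 2 or 3 or control replicate 2) to 2 (without 25 °C replicate 1) fell. Cystathionine β-synthase gene cbs-1 rose (0.44, adjusted p 0.000112), as did sams-5, an S-adenosylmethionine synthase gene (1.58, adjusted p 4.29e-06).

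In the insulin pathway, upstream genes differed little and some target genes differed more. Neither daf-16, the FOXO transcription factor, nor skn-1, the NRF orthologue, was called (-0.12 with adjusted p 0.0947, and -0.02 with adjusted p 0.77). The kinase genes age-1 (-0.13) and pdk-1 (-0.20, adjusted p 0.0222, 0.0554 to 0.0648 without 25 °C replicate 1 or control replicate 1 or 3) fell slightly. Of 18 genes regulated by the pathway, 5 rose, a count of 3 (without 25 °C replicate 3 or control replicate 3) to 5 (without 25 °C replicate 1) with single libraries left out, and 0 fell (2 at an unadjusted p under 0.05, 0 by DESeq2). Without 25 °C replicate 1 or control replicate 2, 1 fell. Among those that rose were dod-3 (1.54, adjusted p 0.000777) and the lysozyme gene lys-7, which had 91.2, 88.1 and 97.7 CPM at 25 °C, against 54.4, 45.7 and 48.3 CPM at 20 °C (log2 fold change 0.90, standard error 0.13, adjusted p 0.000916). Superoxide dismutase sod-3, the usual DAF-16 reporter, overlapped between groups at 2.05 ± 0.564 CPM at 25 °C and 1.53 ± 0.242 CPM at 20 °C (adjusted p 0.262). Of 17 antioxidant genes 1 rose, the thioredoxin gene trx-3 (1.51, adjusted p 7.21e-05), and 3 fell, including the methionine sulfoxide reductase msra-1 (-0.47, adjusted p 0.00284).

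In the hypoxia and hydrogen sulfide response, 5 of 17 genes fell and 3 rose. The prolyl hydroxylase gene egl-9, which marks the hypoxia factor for destruction, had 9.41, 10.1 and 9.61 CPM at 25 °C, against 16, 14.3 and 14.2 CPM at 20 °C (log2 fold change -0.61, standard error 0.08, adjusted p 2.62e-05). The hypoxia factor gene hif-1 fell by less, averaging 83.6 ± 1.95 CPM at 25 °C and 94.1 ± 1.77 CPM at 20 °C (log2 fold change -0.17, standard error 0.04, adjusted p 0.00186). Cysteine synthase family genes cysl-2 and cysl-3 fell as well (-0.44 and -0.38), while the carbonic anhydrase gene cah-1 rose (0.66, adjusted p 0.00499). In these 5 genes no 25 °C library overlapped with a control.

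Detoxification families held increases and decreases. Of 64 tested cytochrome P450 genes 9 rose (14.1%) and 11 fell (17.2%), not far from the 16.6% and 12% of all tested genes. The number of increases became 2 (without 25 °C replicate 3) to 11 (without 25 °C replicate 1) with single libraries left out. The largest decreases that met the naming rule were those of cyp-13A4 (-1.83), cyp-13A5 (-1.75) and cyp-29A4 (-1.64), while cyp-14A2 had 5.06, 5.07 and 4.93 CPM at 25 °C, against 2.2, 2.13 and 1.74 CPM at 20 °C and rose (log2 fold change 1.31, standard error 0.17, adjusted p 1.80e-05). Among 97 tested UDP-glucuronosyltransferase and glutathione S-transferase genes 25 rose and 16 fell. The glutathione transferase gst-10 rose, averaging 27.4 ± 1.46 CPM at 25 °C and 11.9 ± 1.57 CPM at 20 °C (log2 fold change 1.19, standard error 0.10, adjusted p 9.49e-08), and gst-7 fell, averaging 95.8 ± 0.821 CPM at 25 °C and 128 ± 0.763 CPM at 20 °C (log2 fold change -0.41, standard error 0.04, adjusted p 4.19e-07).

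Immune effector genes also moved in both directions. Of 99 tested C-type lectins, secreted or membrane proteins many of which respond to pathogens, 30 rose and 20 fell (30.3% and 20.2%). By the naming rule, the increases included clec-218, which had 30.6, 30.1 and 27.7 CPM at 25 °C, against 13.2, 12.3 and 11.7 CPM at 20 °C (log2 fold change 1.25, standard error 0.07, adjusted p 1.00e-09), as well as clec-5 (0.98, adjusted p 2.21e-08). Decreases included clec-97, with 9.29, 8.95 and 9.87 CPM at 25 °C, against 25.2, 24.7 and 22.8 CPM at 20 °C (log2 fold change -1.37, standard error 0.09, adjusted p 4.20e-09), clec-150 (-0.82, adjusted p 6.69e-09) and clec-222 (-1.16, adjusted p 1.42e-08). A further 166 C-type lectin genes did not pass the filter.

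Lysozymes showed the same divided pattern. The lysozyme gene lys-4 fell sharply, with 164, 165 and 158 CPM in the 25 °C libraries, against 410.1, 382 and 414 CPM in the 20 °C libraries (log2 fold change -1.31, standard error 0.05, adjusted p 8.40e-12), and lys-5 and lys-6 fell as well (-1.26 and -1.06). In contrast lys-1 had 195, 187 and 195 CPM at 25 °C, against 113, 113 and 106 CPM at 20 °C (log2 fold change 0.80, standard error 0.05, adjusted p 2.40e-09) and lys-8 rose (0.66, adjusted p 3.12e-08). The invertebrate-type lysozyme ilys-5 fell (-0.44, adjusted p 8.43e-06) while ilys-2 and ilys-3 rose (3.69 and 3.44). Of 45 tested lysozyme, saposin and antimicrobial peptide genes, 14 rose and 10 fell. Antimicrobial peptide genes of the epidermis nlp-28 (-0.66) and nlp-31 (-0.53, adjusted p 0.0137, 0.0516 to 0.0549 without control replicate 2 or 3) fell. In the p38 pathway the adaptor gene tir-1 rose slightly (0.39, adjusted p 0.00981, 0.0616 to 0.0709 without 25 °C replicate 3 or control replicate 1) and the target genes T24B8.5 and F35E12.5, secreted-protein genes used as reporters of the pathway, rose further. Of these, T24B8.5 had 29.8, 26.3 and 33.9 CPM at 25 °C, against 4.76, 4.35 and 4.23 CPM at 20 °C (log2 fold change 2.75, standard error 0.20, adjusted p 2.61e-06), and F35E12.5 had 9.97, 25.6 and 18.7 CPM at 25 °C, against 1.03, 1.15 and 1.03 CPM at 20 °C (log2 fold change 4.07, standard error 0.40, adjusted p 6.33e-05). Of the 13 members 3 rose and 0 fell (2 lower at an unadjusted p under 0.05, 1 by DESeq2, 1 without 25 °C replicate 2 or control replicate 2).

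Substrate adaptors of ubiquitin ligases, large and fast-evolving families in nematodes, held more increases than decreases. Of 259 tested F-box genes 57 rose and 15 fell (median 0.31), with fbxa-182 (1.66) and fbxb-97 (1.00) among those that rose and fbxa-191 (-1.68) among those that fell. The share that rose was 22%, against 16.6% of all tested genes, and it was smaller in some other fits. DESeq2 called 40 of 259 F-box genes higher and 14 lower. Without 25 °C replicate 2, 39 of 263 were called higher and 13 lower. Of 62 tested MATH and BATH genes 25 rose and 7 fell. In this family math-14 had 4.24, 6.23 and 4.93 CPM at 25 °C, against 1.03, 1.91 and 1.84 CPM at 20 °C (log2 fold change 1.67, standard error 0.22, adjusted p 2.71e-05), bath-12 had 14.2, 13.8 and 14.3 CPM at 25 °C, against 5.97, 5.41 and 5.73 CPM at 20 °C (log2 fold change 1.31, standard error 0.09, adjusted p 6.56e-09), and bath-45 fell (-1.88, adjusted p 2.97e-05). Of 25 tested Skp1-related and cullin genes 9 rose, among them skr-21 (0.70) and the near-identical pair skr-8 and skr-10 (0.63 and 0.61), and 2 fell. Leaving out 1 library at a time gave 1 (without 25 °C replicate 1, 2 or 3 or control replicate 1 or 3) to 2 (without control replicate 2) decreases.

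Transcripts of sperm genes were much higher at 25 °C. All 35 tested genes for major sperm proteins, the cytoskeletal proteins that drive crawling of nematode sperm, were called higher (median log2 fold change 2.96, range 2.28 to 3.49), and 4 more did not pass the filter. Their summed level was 285, 204 and 211 CPM at 25 °C, against 48.7, 34.7 and 8.1 CPM at 20 °C. All 25 °C libraries lay far above all controls. No member was lower at an unadjusted p under 0.05 or by DESeq2. Many of these genes are near-identical in sequence and may share reads. Individual levels were low, as for msp-58 with 2.79, 2.24 and 2.08 CPM at 25 °C, against 0.604, 0.421 and 0.124 CPM at 20 °C (log2 fold change 2.64, standard error 0.42, adjusted p 0.000298) and msd-3 with 3.41, 2.15 and 2.85 CPM at 25 °C, against 0.533, 0.421 and 0.156 CPM at 20 °C (log2 fold change 2.92, standard error 0.45, adjusted p 0.000296).

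Of 35 other tested sperm genes 31 rose and 0 fell by edgeR's test (1 lower at an unadjusted p under 0.05, 0 by DESeq2; median 2.98). Their summed level differed by less, at 228, 192 and 199 CPM at 25 °C, against 117, 108.5 and 99 CPM at 20 °C. The ratio of mean sums was 1.91, against 7.65 for the major sperm proteins. The paternal-effect gene spe-11, a sperm component needed for the first divisions of the egg, had 1.65, 1.73 and 1.2 CPM in the 25 °C libraries, against 0.178, 0.112 and 0.0311 CPM in the 20 °C libraries (log2 fold change 3.81, standard error 0.46, adjusted p 8.00e-06). The sperm-specific gene ssp-31 had 1.53, 1.43 and 1.6 CPM at 25 °C, against 0.178, 0.0561 and 0 CPM at 20 °C, the last of these at 0 counts (log2 fold change 4.29, standard error 0.50, adjusted p 5.68e-06). Likewise ssq-3, ssp-11 and ssp-35 rose, by log2 fold changes of 3.95, 3.72 and 3.60. The sperm phosphatase genes gsp-3 and gsp-4, markers of spermatogenesis, rose as well (2.18 with adjusted p 0.0336, 0.0724 to 0.1 without 25 °C replicate 1, 2 or 3 or control replicate 2 or 3, and 2.68 with adjusted p 0.00315). The increase was smaller for the sperm myosin gene spe-15 (0.91). Outside these lists, the RNA-binding protein gene cpb-2 and the kinesin gene klp-17 also rose (2.61 and 2.94). The latter belongs to the cell cycle list below, in which none was called higher without 25 °C replicate 3.

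Control libraries differed among themselves in sperm transcripts, replicate 1 being the highest and replicate 3 the lowest in the summed level. Without control replicate 3, 33 of the 36 major sperm protein genes then tested were called higher (median 2.54), as were 27 of 36 other sperm genes (median 2.53). Both medians stayed positive and became smaller. Of the male markers, lov-1 averaged 5.19 CPM at 25 °C and 4.76 CPM at 20 °C and was not called, and neither was try-5 (0 of 5 genes of the male list at an unadjusted p under 0.05, 0 by DESeq2). The parts that hours since plating and temperature play in the sperm values cannot be told apart.

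**Figure D4:**
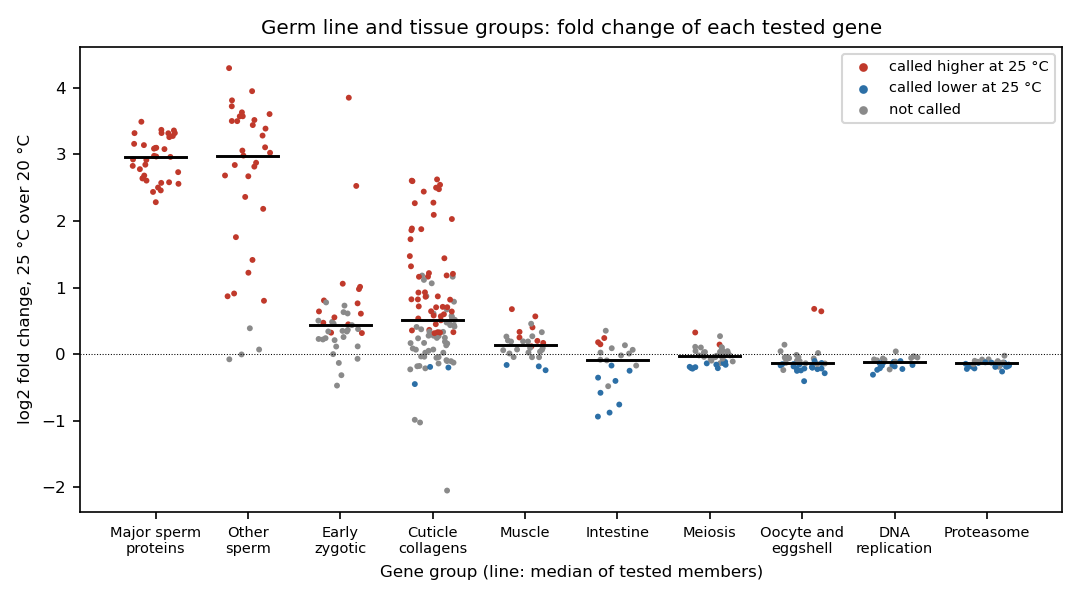
Log2 fold change, 25 °C over 20 °C, of each tested gene in 10 germ line and tissue groups; points are genes coloured by their call and black lines are medians. All major sperm protein genes lie above 2, cuticle collagens spread mostly above 0, and oocyte, replication and proteasome genes lie just below 0.

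Many oocyte and replication genes and fewer meiotic genes fell by small amounts. Of 38 oocyte and eggshell genes 18 fell and 2 rose (median -0.14). Among them was gna-2, an enzyme supplying the chitin precursor of the eggshell, averaging 117 ± 1.84 CPM at 25 °C and 155 ± 2.72 CPM at 20 °C (log2 fold change -0.41, standard error 0.04, adjusted p 5.55e-07). A regulator of the oocyte-to-embryo transition, egg-3, averaged 158 ± 0.787 CPM at 25 °C and 188 ± 0.51 CPM at 20 °C (log2 fold change -0.25, standard error 0.03, adjusted p 2.97e-05), and the oocyte regulator lin-41 and the permeability barrier gene perm-1 fell alike (-0.22 and -0.21). The increases were those of cav-1, a caveolin of the oocyte surface, at 55 ± 7.15 CPM at 25 °C and 35.2 ± 3.24 CPM at 20 °C (log2 fold change 0.64, standard error 0.11, adjusted p 0.00108), and the eggshell proteoglycan gene cpg-7 (0.68, adjusted p 0.00632).

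Among 37 meiotic genes 10 fell, including him-8, the pairing centre protein of the X chromosome (-0.22, adjusted p 0.00173), and 2 rose, one of them spo-11, the enzyme that makes meiotic double-strand breaks, at 51.5 ± 1.44 CPM at 25 °C and 41.1 ± 1.35 CPM at 20 °C (log2 fold change 0.32, standard error 0.06, adjusted p 0.000809). Such increases numbered 1 (without 25 °C replicate 1 or 2 or control replicate 2 or 3) to 2 (without 25 °C replicate 3 or control replicate 1) without single libraries. Of 22 replication genes 12 fell and 0 rose (0 at an unadjusted p under 0.05, 0 by DESeq2; median -0.12), as for the helicase subunit mcm-5 at 327 ± 8.4 CPM at 25 °C and 386 ± 0.506 CPM at 20 °C (log2 fold change -0.24, standard error 0.04, adjusted p 0.000215) and psf-1 (-0.31, adjusted p 7.44e-05). With single libraries left out the count of lower replication genes was 6 (without 25 °C replicate 2 or control replicate 1) to 10 (without control replicate 2). Of 38 cell cycle genes 9 fell, cdk-1 among them (-0.17), and 3 rose (0 (without 25 °C replicate 3) to 2 (without 25 °C replicate 2 or control replicate 2 or 3) with single libraries left out). Of 32 germ cell fate and sex determination genes 5 fell and 2 rose, cpb-2, named above, and fbf-2, a translational regulator of germ stem cells (0.15, adjusted p 0.0447, 0.0868 to 0.239 without 25 °C replicate 1, 2 or 3 or control replicate 1, 2 or 3). In each fit without 1 library, 1 gene of this list rose. Of 13 P granule genes 4 fell and 2 rose. In fits without 1 library, 0 (without 25 °C replicate 1 or 3 or control replicate 1 or 2) to 1 (without 25 °C replicate 2 or control replicate 3) rose. The germ stem cell receptor gene glp-1 averaged 358.8 CPM at 25 °C and 363 CPM at 20 °C, the P granule gene pgl-1 was not called, and the helicase gene glh-1 rose slightly (0.15, adjusted p 0.0167, 0.0785 to 0.133 without 25 °C replicate 1 or 3 or control replicate 1 or 2). The RNA-binding gene daz-1 fell (-0.23, adjusted p 0.00024). The sex-determining genes her-1 and xol-1 were not called (adjusted p 0.985 and adjusted p 0.369).

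Among small RNA genes more fell than rose. Of 44 Argonaute and small RNA pathway genes 16 fell and 4 rose. Leaving out 1 library at a time gave 2 (without 25 °C replicate 3 or control replicate 2) to 3 (without 25 °C replicate 1 or 2 or control replicate 1 or 3) increases. The Piwi paralogue prg-2 had 211, 190.4 and 194 CPM at 25 °C, against 246, 272 and 269 CPM at 20 °C (log2 fold change -0.40, standard error 0.05, adjusted p 5.44e-06), the helicase gene eri-6 had 11.5, 12.4 and 13.5 CPM at 25 °C, against 22.3, 21.4 and 20.1 CPM at 20 °C (log2 fold change -0.77, standard error 0.07, adjusted p 4.68e-07), and mut-7, which acts in transposon silencing, fell (-0.27, adjusted p 6.27e-05). The largest increase was that of the Argonaute gene wago-10, at 0.727 ± 0.263 CPM at 25 °C and 0.344 ± 0.0824 CPM at 20 °C (log2 fold change 1.07, standard error 0.36, adjusted p 0.0314, 0.0575 to 0.172 without 25 °C replicate 1 or 3 or control replicate 1, 2 or 3). The nuclear Argonaute wago-9, also known as hrde-1 and required for inherited silencing and for fertility at 25 °C, was not called, at 911 ± 18.4 CPM at 25 °C and 951 ± 11.1 CPM at 20 °C (adjusted p 0.439). The histone H3 lysine 9 methyltransferase genes set-25 and met-2 both fell. Levels of set-25 were 53.1, 50.9 and 55.6 CPM at 25 °C, against 69.8, 65.9 and 66.8 CPM at 20 °C (log2 fold change -0.34, standard error 0.07, adjusted p 0.00189), and those of met-2 were 197, 193 and 192 CPM at 25 °C, against 227, 218 and 216 CPM at 20 °C (log2 fold change -0.18, standard error 0.04, adjusted p 0.00115). Conversely cec-4, which anchors methylated chromatin at the nuclear envelope, had 54, 58.8 and 54.9 CPM at 25 °C, against 36.6, 38.3 and 38.2 CPM at 20 °C and rose (log2 fold change 0.57, standard error 0.06, adjusted p 1.54e-06). Of the 24 tested genes of H3 lysine 9 methylation and heterochromatin, 3 fell (12.5%) and 2 rose (8.33%). Over all tested genes these shares were 12% and 16.6%.

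Histone genes moved in both directions. Of 71 tested, 13 rose (18.3%) and 12 fell (16.9%), not far from the 16.6% and 12% of all tested genes. The gene his-41 averaged 21.8 ± 1.57 CPM at 25 °C and 14 ± 0.88 CPM at 20 °C (log2 fold change 0.63, standard error 0.07, adjusted p 5.35e-06), against his-4 at 129 ± 5.31 CPM at 25 °C and 176 ± 5.33 CPM at 20 °C (log2 fold change -0.44, standard error 0.05, adjusted p 1.37e-05). Replication-dependent histone genes exist in many near-identical copies, so reads may be shared and the 71 genes are not 71 separate signals. With single libraries left out, increases numbered 7 (without 25 °C replicate 3 or control replicate 1 or 2) to 11 (without control replicate 3).

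Some genes first transcribed in early embryos were higher, and the embryo markers were not called. Of 39 tested early zygotic genes 14 rose and 0 fell (1 lower at an unadjusted p under 0.05, 0 by DESeq2; median 0.43). The genes sdz-6 and sdz-24, known as targets of SKN-1 in embryos, both rose. Levels of sdz-6 were 1.82, 1.97 and 1.8 CPM at 25 °C, against 0.107, 0.112 and 0.156 CPM at 20 °C (log2 fold change 3.85, standard error 0.33, adjusted p 1.51e-07). Those of sdz-24 were 1.82, 2.98 and 1.94 CPM at 25 °C, against 0.498, 0.421 and 0.249 CPM at 20 °C (log2 fold change 2.52, standard error 0.32, adjusted p 1.65e-05). In the same list sdz-28 and sdz-9 rose by 0.81 and 1.01. The endoderm genes end-1 and end-3 and the early marker pes-10 were not called, the last averaging 5.38 CPM at 25 °C and 4.96 CPM at 20 °C. The summed level of the group was 182, 196 and 194 CPM at 25 °C, against 146, 154 and 133 CPM at 20 °C, with no overlap, and the calls of an increase became 7 (without control replicate 3) to 17 (without control replicate 2) when single libraries were left out.

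Cuticle collagens, the structural proteins that the epidermis secretes at each moult, held many increases and few decreases. Of 107 tested genes 48 rose and 3 fell (median 0.51), and 52 did not pass the filter. Named by the rule were col-13, with 18.4, 20.2 and 17.2 CPM in the 25 °C libraries, against 7.18, 5.69 and 4.08 CPM in the 20 °C libraries (log2 fold change 1.73, standard error 0.15, adjusted p 2.49e-07), col-147, with 11.4, 8.14 and 7.13 CPM at 25 °C, against 2.56, 1.96 and 2.06 CPM at 20 °C (log2 fold change 2.03, standard error 0.18, adjusted p 1.88e-07), and col-150 and col-180, with log2 fold changes of 1.32 and 2.27. Groups did not overlap in these 4 genes. The collagens col-81, col-129 and col-139, chosen after their values were seen, rose by 2.50, 2.44 and 2.60 on the log2 scale. Of these, col-129 had 198, 194 and 150.5 CPM at 25 °C, against 38.3, 33.5 and 28.3 CPM at 20 °C (log2 fold change 2.44, standard error 0.15, adjusted p 5.04e-06). The adult-specific collagen col-19 rose slightly (0.31, adjusted p 0.00528), and col-8 (-0.19, adjusted p 0.0439, 0.0594 to 0.12 without 25 °C replicate 1 or 3 or control replicate 1, 2 or 3), col-122 (-0.20, adjusted p 0.0407, 0.0512 to 0.1 without 25 °C replicate 1, 2 or 3 or control replicate 1, 2 or 3) and col-43 (-0.45, adjusted p 0.0193, 0.0697 to 0.113 without 25 °C replicate 2 or control replicate 1) fell. The summed level was 32500, 30250 and 30120 CPM at 25 °C, against 29500, 29470 and 29290 CPM at 20 °C, with every 25 °C library slightly above all controls. In fits without 1 library, 31 (without control replicate 2) to 56 (without control replicate 1) collagens were called higher and 1 (without any 1 library) lower.

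Control replicate 3 had the lowest and replicate 1 the highest level of many collagens. Without control replicate 3, 36 collagens were called higher (median 0.36). In the body-shape genes, whose mutants are dumpy, roller, squat or blistered and most of which encode collagens, the groups overlapped in the summed level, which was 65.7, 69.8 and 77.5 CPM at 25 °C, against 65.8, 48.6 and 38 CPM at 20 °C. There 6 of 20 rose and 0 fell (0 at an unadjusted p under 0.05, 0 by DESeq2), and the collagen genes dpy-2 (1.31, adjusted p 0.000444) and sqt-3 (0.61, adjusted p 0.0013) were among those that rose. The median of this group was 0.40 with all libraries, -0.18 without control replicate 3 and 1.35 without control replicate 1, so its sign depended on which controls were used.

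Some components of the apical extracellular matrix and the moulting programme rose, and none was called lower. Of 40 tested genes 17 rose and 0 fell (0 at an unadjusted p under 0.05, 0 by DESeq2; median 0.49). The zona pellucida domain genes noah-1 and noah-2, which join epidermis to cuticle, both rose. Levels of noah-1 were 15.2, 18.4 and 19 CPM at 25 °C, against 8.92, 8.41 and 7.91 CPM at 20 °C (log2 fold change 1.06, standard error 0.12, adjusted p 5.43e-06). Those of noah-2 were 13, 15.9 and 17.6 CPM at 25 °C, against 7.11, 6.39 and 6.13 CPM at 20 °C (log2 fold change 1.25, standard error 0.13, adjusted p 3.00e-06), and neither gene overlapped between groups. The leucine-rich repeat gene sym-1 rose (1.46, adjusted p 0.000187), and so did pan-1 (0.65, adjusted p 5.94e-06). The epidermal marker nhr-23, a moulting regulator, averaged 22.7 CPM at 25 °C and 23 CPM at 20 °C and was not called. Summed levels were 178, 198 and 202 CPM at 25 °C, against 137, 139 and 132 CPM at 20 °C, with no overlap. With single libraries left out 11 (without 25 °C replicate 2 or control replicate 2) to 15 (without 25 °C replicate 1) genes were called higher. Hedgehog-related genes that rose included grd-10, averaging 14.3 ± 1.58 CPM at 25 °C and 4.19 ± 0.54 CPM at 20 °C (log2 fold change 1.77, standard error 0.14, adjusted p 8.75e-08), and grd-13 (1.17, adjusted p 2.22e-07). In all, 9 of 45 rose (20%) and 5 fell (11.1%), not far from the 16.6% and 12% of all tested genes. Such decreases numbered 3 (without 25 °C replicate 1 or control replicate 3) to 6 (without 25 °C replicate 3 or control replicate 1) without single libraries.

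**Figure D5:**
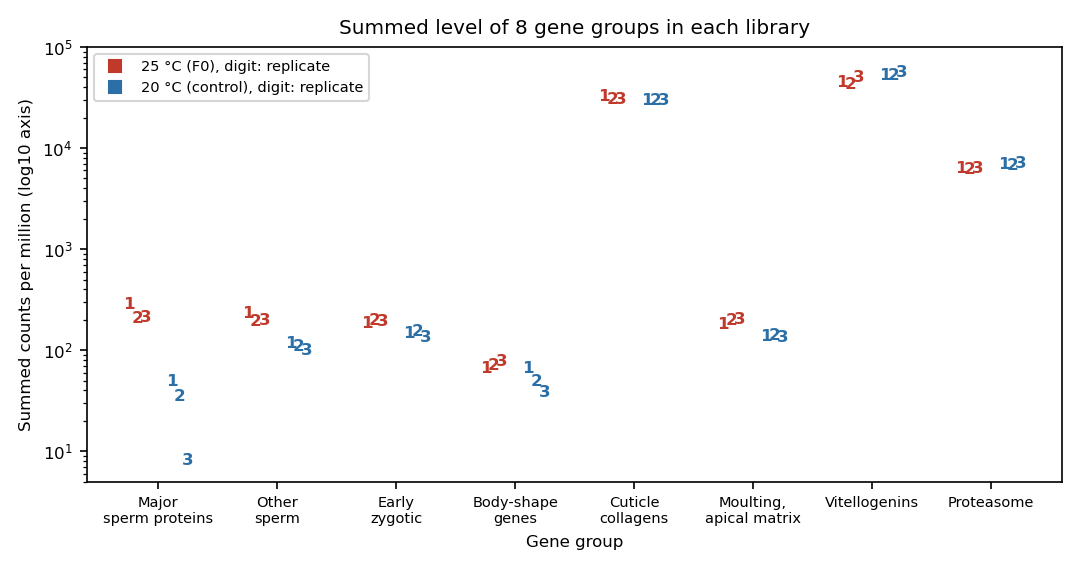
Summed CPM of 8 gene groups in each library on a log10 axis; digits are replicate numbers, with 25 °C left and 20 °C right within a group. Control replicate 3 is lowest for sperm genes and body-shape collagens, and the 25 °C libraries lie above all controls for both sperm groups, early zygotic genes and the moulting genes.

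Among somatic tissues, more muscle genes rose than fell and more intestinal genes fell than rose. Of 30 muscle genes 8 rose and 3 fell. Troponin T mup-2 had 315, 311 and 288 CPM at 25 °C, against 177, 191 and 205 CPM at 20 °C (log2 fold change 0.68, standard error 0.07, adjusted p 3.05e-05), and the marker myo-3, the myosin heavy chain of body wall muscle, rose by 0.57 (adjusted p 0.0086), whereas unc-54, the major myosin, was not called (adjusted p 0.591). Troponin C pat-10 fell slightly (-0.18, adjusted p 0.00282). In fits without 1 library, 5 (without 25 °C replicate 1 or control replicate 1) to 7 (without 25 °C replicate 3 or control replicate 3) muscle genes were called higher. Of 11 tested pharynx genes 4 rose (36.4%) and 1 fell (9.09%), against 16.6% and 12% of all tested genes. The pharyngeal selector gene pha-4 rose (0.62, adjusted p 0.0105, 0.0515 to 0.0575 without control replicate 1 or 3), while pharyngeal myosins myo-1 and myo-2 were not called (adjusted p 0.0694 and adjusted p 0.137).

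Of 22 intestinal genes 8 fell and 3 rose. With single libraries left out, 1 (without 25 °C replicate 2 or control replicate 1) to 3 (without 25 °C replicate 1 or 3 or control replicate 3) rose. The peptide transporter pept-1 had 66, 62.4 and 66.9 CPM in the 25 °C libraries, against 94.2, 95.5 and 102 CPM in the 20 °C libraries (log2 fold change -0.58, standard error 0.05, adjusted p 2.73e-07). The cathepsin B gene cpr-5 had 259, 293 and 232 CPM at 25 °C, against 461, 418 and 447 CPM at 20 °C (log2 fold change -0.76, standard error 0.08, adjusted p 7.50e-06), and the aspartyl proteases asp-6 and asp-3 fell (-0.40 and -0.35). The gut esterase ges-1 rose slightly (0.24, adjusted p 0.0105, 0.0506 to 0.0602 without 25 °C replicate 2 or control replicate 1) and the gut transcription factor elt-2 was not called (adjusted p 0.208).

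Few neuronal genes were called. Of 30 pan-neuronal and transmitter genes 2 fell, unc-13 (-0.25, adjusted p 0.033, 0.0612 to 0.0985 without 25 °C replicate 1 or 2 or control replicate 2 or 3) and tdc-1 (-0.25, adjusted p 9.47e-05), and 0 rose (1 at an unadjusted p under 0.05, 0 by DESeq2). In the AFD thermosensory neurons, which sense temperature through receptor guanylyl cyclases, 0 of 12 genes tested were called by edgeR's quasi-likelihood test. At an unadjusted p under 0.05, 3 were higher and 0 lower, and DESeq2 called 0. Without control replicate 2, 1 was called higher. The cyclase gene gcy-8 averaged 0.633 ± 0.143 CPM at 25 °C and 0.535 ± 0.0509 CPM at 20 °C and gcy-23 0.88 ± 0.22 CPM at 25 °C and 0.87 ± 0.175 CPM at 20 °C, with overlap in both. For gcy-18 the 25 °C libraries lay above the 20 °C libraries, at 1.58 ± 0.196 CPM at 25 °C and 1.09 ± 0.176 CPM at 20 °C, without reaching the threshold (log2 fold change 0.55, standard error 0.22, adjusted p 0.0677). All 3 averaged under 2 CPM in whole worms, which limits the differences detectable at this depth. Of 89 neuropeptide and insulin genes 4 rose, ins-7, an insulin made in the intestine, among them (1.84, adjusted p 0.000108), and 11 fell, among them nlp-24 (-0.68, adjusted p 0.000332). Decreases in this group numbered 3 (without control replicate 2) to 9 (without 25 °C replicate 2 or control replicate 1) with single libraries left out.

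Genes of protein synthesis held decreases among the translation factors. Mitochondrial ribosomal protein genes were called in either direction less often than all tested genes. Of 79 cytosolic ribosomal protein genes 2 were called lower, rps-22 (-0.19, adjusted p 0.0227, 0.0503 to 0.067 without 25 °C replicate 2 or 3 or control replicate 1 or 3) and ubl-1 (-0.21), although 51 had all 25 °C libraries below all controls, and the median was -0.08. The corresponding share over all tested genes was 24.3%. When only the 6 libraries compared were fitted, 49 of these genes were called lower, and with single libraries left out of the fit of all libraries the count was 1 (without 25 °C replicate 2 or 3 or control replicate 1 or 3) to 3 (without 25 °C replicate 1). None was higher at an unadjusted p under 0.05. Of 29 translation factors 10 fell, eif-3.I at 115 ± 1.81 CPM at 25 °C and 149 ± 2 CPM at 20 °C (log2 fold change -0.37, standard error 0.06, adjusted p 0.000311) and the initiation factor isoform ife-5 (-0.59, adjusted p 0.000186) among them, and 1 rose, the elongation factor eef-1A.2 (0.27, adjusted p 0.00615). Of 65 mitochondrial ribosomal protein genes 9 rose (13.8%) and 1 fell (1.54%), against 16.6% and 12% of all tested genes. The increases numbered 3 (without 25 °C replicate 1 or control replicate 3) to 5 (without 25 °C replicate 2 or 3) and the decreases 0 (without 25 °C replicate 1 or 3 or control replicate 2 or 3) to 1 (without 25 °C replicate 2 or control replicate 1) with single libraries left out.

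Worms returned to 20 °C for 3 generations were compared with the same controls, which therefore enter both comparisons, and 38 genes (0.263% of those tested) were called there. Of the 898 genes at least 2-fold higher at 25 °C, 10 were called in that comparison, and of the 145 at least 2-fold lower, 2 were. In F3 worms, 670 of the 898 genes and 125 of the 145 lay within 1.5-fold of the controls, and the rest differed by more. Median log2 fold changes of F3 worms against controls were -0.708 for body-shape genes, -0.275 for cuticle collagens, -0.213 for major sperm proteins and -0.047 for proteasome genes. The log2 fold changes of F3 worms against controls were 0.83 for hsp-16.41, 0.05 for hsp-70, -0.36 for fat-7, 0.01 for fat-2, -0.05 for asah-1, -0.12 for lys-4, -0.06 for spe-11, -0.53 for col-13 and 0.09 for hsp-6. The 25 °C values of the same genes were 5.49, 1.78, -3.67, 0.72, 2.21, -1.31, 3.81, 1.73 and -0.45 in the same order. None of these 9 genes was called in F3 worms.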

How the data were processed

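Total RNA of whole adults was depleted of ribosomal RNA and sequenced as paired reads from strand-marking libraries, per the labels' protocols. For 12 libraries, the authors' deposited values are estimated counts over 45836 gene rows and 53925 repeat rows, and 22.4% of them are not whole (tolerance 1e-06). The submitters' processing notes name TopHat2 2.1.0, featureCounts 1.5.1 and DESeq2 1.8.1. Build and annotation, strand setting and handling of multiply matching reads: not given in the sources used here.

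Counts were rounded, repeat rows left out, low genes removed with edgeR 4.0.16 (filterByExpr over the 4 groups), libraries scaled by TMM, and all 12 libraries fitted with the quasi-likelihood model (limma 3.58.1, R 4.3.3). The contrast was 25 °C over 20 °C, and p-values were adjusted by the Benjamini-Hochberg method over 14466 genes. CPM are counts per 1000000 after TMM scaling. The fit was tested on simulated data first. Alternatives were RLE scaling, DESeq2 1.42.0, no filter, the 6 libraries alone, a replicate block and leaving out each library.

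Gene groups and named genes were chosen with earlier results of these data known. By the naming rule, the text may name up to 12 genes per direction with the largest changes. These had to have a gene-class name, a minimum mean count and no overlap between the groups compared. For them, the lack of overlap was therefore fixed by selection. Genes outside these limits may have changed more. The rule also allows up to 4 called genes per direction with the smallest p in each group. It further allows a set of heat shock, desaturase, yolk and signalling genes. Tissue markers, nspd-7 and other genes said to be chosen after their values were seen are outside it. P-values rest on the spread between the 3 biological replicates within each of the 4 groups fitted, F3 and set-25 worms included. Replicate 3 of the set-25 mutants held 10678819 counts, of which 14.39% came from ribosomal RNA genes and 12.2% from repeat annotations. In set-25 replicates 1 and 2, ribosomal RNA genes gave 7.542% and 3.473% of counts. The effect of the set-25 libraries on the calls, apart from that of the F3 libraries, was not tested.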

Additional observations from a re-analysis of the deposited data

How the results depend on the processing

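The counts of called genes, 2408 higher and 1743 lower at 25 °C, kept within 1.5 times under another scaling (RLE, 2371 and 1827), under DESeq2 (2039 and 1657), with no filter on low counts (2690 and 1959) and with 1 library left out (1875 to 1941 and 1361 to 1445). Fitting only the 6 libraries compared gave 2905 higher and 2788 lower, so the lower calls moved more. Requiring at least a 2-fold difference left 898 and 145. The labels do not say whether replicate numbers pair the libraries. Deviations of same-numbered libraries from their group means correlated at 0.116, -0.0143 and 0.028, the first being the largest value of any pair. With 3 libraries per group these values cannot settle whether a pairing exists. With the replicate number as a block the counts were 2887 and 2787. Over 69 gene groups, the 6 libraries alone raised the count of lower calls by over 1.5 times in 28 groups and that of higher calls in 17, and lowered neither by as much in any. Of 196 called genes that are named, 165 kept their call in each of the 11 alternatives that tested them, and none changed sign. Some alternatives tested 231 of the 232 named genes. Many of these genes were chosen for a small p or a large change, so the share need not hold for all calls. Besides the losses without single libraries given with each gene, the block ended the calls of acs-2, icl-1 and lipl-5 (adjusted p 0.0856, 0.136 and 0.0777), the fit of 6 libraries those of icl-1, nlp-28 and vit-2 (0.0795, 0.0535 and 0.0925), DESeq2 those of gsp-3, fbf-2 and wago-10 (0.107, 0.0775 and 0.116), and the missing filter those of gsp-3 and hsp-25 (0.0704 and 0.105). The causes were not tested.

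Sign changes concerned genes that were not called. For nhr-80 the value was -0.003 under RLE, DESeq2 and the 6 libraries alone, -0.01 without the filter and -0.008 with the block, for gcy-23 it was -0.004 without the filter, and for her-1 0.0 with the block. Leaving out 1 library at a time gave -0.078 to 0.054 for nhr-80, -0.224 to 0.157 for gcy-23, -0.569 to 0.24 for her-1, -0.68 to 0.04 for end-1, -0.227 to 0.108 for end-3, -0.188 to 0.011 for fat-5, -0.052 to 0.0 for hsp-3, -0.118 to 0.034 for nhr-23, -0.001 to 0.239 for pes-10 and -0.054 to 0.291 for unc-54.

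A gene without a call may still differ. In simulated data of 14138 tested genes, 67 genes were changed 1.5-fold, 67 genes 2-fold and 66 genes 4-fold. The test recovered 53.7%, 74.6% and 98.5% of these. In the real comparison 28.7% of tested genes were called. The adjustment of p depends on that share, so the simulated rates need not hold there. Recovery was not split by expression level. Counts are relative within a library, which leaves total RNA per worm unmeasured. A planned count of heat shock element letters in promoters was not run, since no promoter sequence was used here.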

Other observations

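Gene classes were also counted by name, and the classes given here were chosen after their values were seen. Of 99 classes with at least 10 tested genes, those with at least 40% of members called in 1 direction include several that the report does not describe. Of 48 transthyretin-related genes (ttr), 23 rose and 2 fell (median log2 fold change 0.272), as for ttr-51 with 146, 146 and 140.3 CPM at 25 °C, against 92.6, 94.8 and 87.8 CPM at 20 °C (log2 fold change 0.65, standard error 0.05, adjusted p 1.69e-08) and ttr-45 (log2 fold change 0.72, standard error 0.05, adjusted p 1.00e-08). Of 10 tested nspd genes, a nematode-specific peptide family, 9 rose (median 3.04), and nspd-7 had 4.65, 2.95 and 3.36 CPM at 25 °C, against 0.782, 0.841 and 0.498 CPM at 20 °C (log2 fold change 2.36, standard error 0.30, adjusted p 2.08e-05). Of 19 tested nspc genes, another such family, 11 fell (median -0.455), with nspc-15 averaging 13.4 ± 0.228 CPM at 25 °C and 19.7 ± 2.08 CPM at 20 °C (log2 fold change -0.56, standard error 0.08, adjusted p 4.56e-05). Near-identical members of these families may share reads. Of 15 P-glycoprotein transporter genes 7 fell and 4 rose, among them pgp-9 with 15.4, 14.6 and 14.1 CPM at 25 °C, against 27.2, 25 and 26.7 CPM at 20 °C (log2 fold change -0.84, standard error 0.07, adjusted p 1.88e-07) and, upwards, pgp-10 (log2 fold change 1.34, standard error 0.16, adjusted p 7.81e-06). Of 12 aldehyde dehydrogenase genes 5 rose and 4 fell, and alh-6 averaged 100.4 ± 9.07 CPM at 25 °C and 73 ± 0.871 CPM at 20 °C (log2 fold change 0.46, standard error 0.07, adjusted p 0.000167).

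Other groups held few calls. Of 186 nuclear receptor genes 15 rose, nhr-35 among them (log2 fold change 0.64, standard error 0.10, adjusted p 0.000114), and 18 fell, nhr-115 among them (log2 fold change -1.22, standard error 0.21, adjusted p 0.000353), but with single libraries left out 6 (without 25 °C replicate 2 or control replicate 1) to 10 (without control replicate 2) were called higher and 8 (without 25 °C replicate 2) to 13 (without 25 °C replicate 1 or control replicate 1) lower. Of 27 cilium genes 3 rose and 3 fell (1 lower by DESeq2 and 1 (without 25 °C replicate 1 or 3 or control replicate 1) to 2 (without 25 °C replicate 2 or control replicate 2 or 3) with single libraries left out), the increases including dyf-3 (log2 fold change 1.81, standard error 0.34, adjusted p 0.00429). Of 33 tRNA synthetase genes 6 fell and 1 rose, the increase becoming 0 (without any 1 library) with single libraries left out. Of 25 autophagy genes 2 rose and 1 fell, 1 (without any 1 library) rising and 1 (without 25 °C replicate 1, 2 or 3 or control replicate 1 or 2) to 3 (without control replicate 3) falling with single libraries left out.

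By chromosome, the share of tested genes called higher lay between 13.1% (III) and 19.5% (IV), and the share called lower between 10.7% (X) and 13.1% (III and V). Of 499 tested pseudogenes 78 were called higher and 63 lower. Of 86 tested small nucleolar RNA genes 1 was called higher and 3 lower, with a median log2 fold change of -0.221. Reads from repeat annotations, left out of the tests, made up 0.818% to 0.95% of counts at 25 °C and 0.821% to 0.97% at 20 °C.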
